A study of Mus musculus with 16 samples.

Results

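The 10 genes described here encode chaperones of the endoplasmic reticulum (ER) and, with them, Xbp1, a transcription factor that drives their expression: Hspa5, Hsp90b1, Hyou1, Dnajb9, Sdf2l1, Calr, Pdia4, Creld2, Manf and Xbp1. They were taken by symbol, 1 row per Ensembl gene, from a liver RNA sequencing table of 24082 genes. The rule used no measured value, but the genes were chosen with earlier results of these data known. All 10 were among the 12535 genes that passed the filter on low values and were tested.

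The livers came from 16 female C57Bl6/J mice, 9 to 11 weeks old per the study, in 4 groups of 4. Pair vehicle mice were given a control liquid diet, EtOH vehicle mice a Lieber-DeCarli liquid diet in which ethanol rose to 6% vol/vol, and Pair IMC and EtOH IMC mice the same diets with iodomethylcholine (IMC) at 0.06% wt/wt. Feeding lasted 25 days by the methods and 24 by the legend. IMC blocks the enzyme with which gut bacteria turn choline into trimethylamine, so the comparisons ask what that block does to the liver in each diet and what ethanol does with and without it. What all groups share is the liquid diet, and per the study the control mice were fed to match the ethanol-fed mice, while IMC mice on ethanol ate less and weighed less, so an IMC difference and a food difference cannot be told apart.

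Proteins that a liver cell secretes or places in its membranes are folded in the ER, and hepatocytes, which make most plasma proteins, carry a large ER. When unfolded proteins build up there, the sensors IRE1 (Ern1), PERK (Eif2ak3) and ATF6 start the unfolded protein response: IRE1 splices Xbp1 mRNA into the form that encodes an active factor, ATF6 is cut to release another, and both raise chaperone genes. Gene counts do not separate spliced from unspliced Xbp1, so the Xbp1 values below are of the whole transcript. In whole liver, fewer cells of a type and less RNA per cell cannot be told apart.

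A known mark of this gene class is the ER stress response element (ERSE), the letters CCAAT, 9 free letters, then CCACG, to which ATF6 and XBP1 bind together with the CCAAT-binding factor NF-Y. The 250 bases before the RefSeq start site (GRCm38.p6) were searched on both strands, and 8 of the 10 genes matched an entry in the promoter table. The ERSE stood in 4 of these 8, against 0.113% of all 32851 promoters in the table, with 2 matches in Hsp90b1, on opposite strands. The matches are shown because they are what Hspa5, Hsp90b1, Calr and Creld2 have in common, and those of Dnajb9, 1 of the 2 genes that IMC changed, because it holds only the CCACG part. Sdf2l1 also held only CCACG, at 3 places that are not printed. Each line gives 29 bases 5′ to 3′ on the strand that carries the match, with CCAAT and CCACG in capitals.
Hspa5 (chr2:34772020-34772048, plus strand): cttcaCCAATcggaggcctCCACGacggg
Hsp90b1, far match (chr10:86705633-86705661, minus strand): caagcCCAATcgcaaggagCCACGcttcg
Hsp90b1, near match (chr10:86705528-86705556, plus strand): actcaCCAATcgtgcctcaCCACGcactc
Calr (chr8:84847070-84847098, plus strand): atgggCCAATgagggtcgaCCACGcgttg
Creld2 (chr15:88819515-88819543, minus strand): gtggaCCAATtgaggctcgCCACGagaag
Dnajb9, far CCACG (chr12:44210160-44210188, minus strand): aacaacagttttCCACGtgcgcgtagggc
Dnajb9, near CCACG (chr12:44210067-44210095, minus strand): cggtcgcgccagCCACGggctcccgccag
The ERSE match nearest a start site was that of Hspa5, at bases -65 to -47. Those of Hsp90b1 lay at -212 to -194 and -107 to -89, that of Creld2 at -126 to -108 and that of Calr at -162 to -144. The CCACG matches of Dnajb9 lay at -108 to -104 and -15 to -11. In GENCODE vM21, whose transcripts can start earlier than the RefSeq ones, the Hspa5 match and both Dnajb9 matches fell in an exon of their gene and the others outside it. Neither ATTGGNCCACG (ERSE-II, in 0.0304% of all promoters) nor TGACGTGG (a UPR element, in 0.563%) was found in the 8 windows. CCACG alone, which is part of the ERSE and of ERSE-II, was in 6 of the 8 and in 28.3% of all promoters. These are matches of letters, and no binding was measured.

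The values below are normalized read counts rescaled by a median ratio over all 16 libraries, so that livers on both diets share 1 scale. The libraries held 9632659 to 12601199 reads, and in 39 of the 40 sets of 4 livers (10 genes in 4 groups) the CV from counting alone was at most 0.5 of the CV between mice. The exception was Xbp1 in EtOH vehicle mice, at 2.34% beside 2.58%. Hepatocyte markers summed to between 975538 and 1811300 normalized counts per library, and 7 of 11 pancreatic acinar markers, which would flag a tissue rich in ER chaperones, had no read in any library. Both acinar markers that could be tested were lower with IMC in pair-fed mice and averaged over diets. Of those too low to be tested, Cela2a averaged 0.768 in Pair vehicle and 10.4 in Pair IMC mice, and Prss2 0.256 and 0. Ctrb1 had 4.09 to 43.3 normalized counts in Pair vehicle mice, with mouse 12 highest, and at most 1.02 in Pair IMC mice, and Cela1 averaged 114 and 78.8. Their part in the values of the 10 genes was not tested. Library numbers 1 to 8 hold the Pair IMC and EtOH vehicle mice and 9 to 16 the Pair vehicle and EtOH IMC mice. No label calls these batches, but the effect of IMC within 1 diet, of ethanol within vehicle or IMC, and the difference of the IMC effects all run along that split, and cannot be told apart from it. The effects averaged over both diets or over both treatments are balanced across it. Differences were tested with limma on log2 values plus 1, with Benjamini-Hochberg adjustment over the 12535 genes.

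Per kilobase of exon, averaged over all 16 livers, Calr stood highest at 2207 normalized counts per kb, followed by Hspa5 at 1940.3 and Hsp90b1 at 1624, all above the 97th percentile of genes tested. Pdia4 (816), Xbp1 (619), Dnajb9 (409) and Hyou1 (254) came next. Creld2 (183), Manf (167) and Sdf2l1 (99.6) were lowest, with Sdf2l1 at percentile 71.3. From Hsp90b1 down to Hyou1 each gene exceeded the next in all 16 livers. The neighbours that did not separate were Calr and Hspa5, and Creld2 and Manf, each with the higher-ranked gene ahead in 11 of 16 livers, while Hspa5 led Hsp90b1 in 13.

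**Figure D1:**
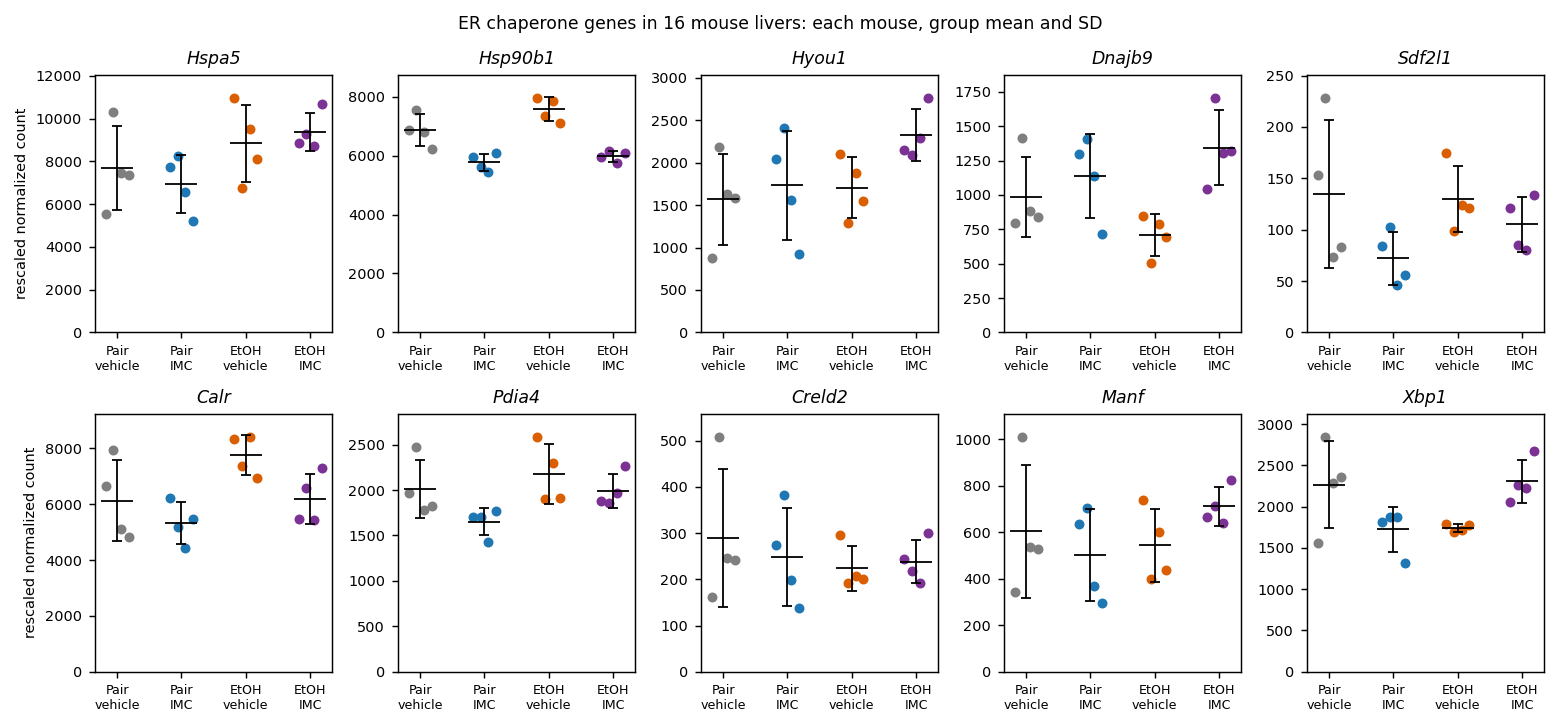
Rescaled normalized counts of the 10 genes (y axis, from 0) in each mouse of the 4 groups (points, in library order), with the group mean (long bar) and SD (whiskers). Hsp90b1 is lower in both IMC groups than in the vehicle group on the same diet with no overlap, and Dnajb9 is higher in every EtOH IMC mouse than in any EtOH vehicle mouse.

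IMC lowered Hsp90b1 and raised Dnajb9 in ethanol-fed mice. These were the 2 of 10 genes past an adjusted p of 0.05 there, beside 21.5% of all genes tested. In pair-fed mice 0 of 10 passed in limma, beside 9.49% of all genes. At an unadjusted p under 0.05 there were 4 of 10, beside 3226 of the 12535 genes tested. DESeq2 called 2 of the 10 and edgeR with TMM 0, beside 1484 and 1155 of all genes. Averaged over both diets Hsp90b1 and Dnajb9 passed in limma, in the directions they had in ethanol-fed mice, beside 28.2% of all genes. By the count past the adjusted threshold in limma, the 10 genes stood near or below the background in each comparison.

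Hsp90b1 (GRP94, ENSMUSG00000020048, chr10:86690209-86705509, minus strand, positions in GRCm38) is the ER form of the HSP90 chaperone and folds a select set of clients such as integrins and Toll-like receptors. In Pair vehicle mice it measured 6866, 7561, 6790.4 and 6223 normalized counts and in Pair IMC mice 5953, 5629.9, 5445 and 6080.2. EtOH vehicle mice gave 7957, 7354, 7870.4 and 7121 and EtOH IMC mice 5937, 6156, 5744 and 6103. Every IMC liver lay below every vehicle liver on the same diet, and indeed below all 8 vehicle livers. The fall was 1.26-fold in ethanol-fed mice (log2 fold change -0.34, SE 0.078, adjusted p = 0.00532) and 1.22-fold averaged over both diets (log2 fold change -0.29, SE 0.055, adjusted p = 0.000871). In pair-fed mice the value was of the same sign and missed the threshold (log2 fold change -0.25, SE 0.078, adjusted p = 0.0542), passing it without library 8 (adjusted p = 0.0468) or without library 16 (0.0331) and in DESeq2 (0.0061). The difference between the diets was -0.09 with an SE of 0.11 (limma adjusted p = 0.745). Under quantile normalization the fall in ethanol-fed mice shrank to a log2 fold change of -0.14 (limma adjusted p = 0.231), while the average over both diets stayed past the threshold. Some markers of other cells were also lower with IMC, and others were not. Of 8 macrophage, 6 endothelial and 6 hepatocyte markers 0 passed with IMC in either diet. In ethanol-fed mice 3 of 7 stellate cell markers were lower with IMC, beside 21.5% of all genes, while Des had a higher mean (71.4 and 105). The sum of the 7 ran from 4415 to 5379 normalized counts in EtOH vehicle and 2831 to 3809 in EtOH IMC livers. In pair-fed mice 0 of the 7 passed, with a median log2 fold change of -0.49, and the sums overlapped, at 3024 to 4394 and 3047 to 3884. Averaged over both diets 4 of the 7 were lower with IMC and 0 higher, beside 28.2% of all genes. Of the 2 plasma cell markers tested, Sdc1, which other cells also express, was lower with IMC in both diets. The plasma cell sums did not overlap, at 2828 to 3504 in Pair vehicle and 1991 to 2613 in Pair IMC mice, and at 4807 to 5340.1 in EtOH vehicle and 3104 to 4301 in EtOH IMC mice. The other defining genes of that list were low, Jchain at means of 8.66 to 15.2, and Mzb1 and Tnfrsf17 under 3 in each group. Of 3 leukocyte markers tested, Ptprc was lower with IMC in ethanol-fed mice (means of 182 and 106), beside 21.5% of all genes. S100a8 (5.53 and 9.8) and S100a9 (10.4 and 14.9) had higher means there without passing. The sums of that list were 188 to 245 and 124 to 156, and in pair-fed mice 0 of the 3 passed. Of 5 bile duct markers 1 was lower in pair-fed mice (sums of 711 to 1215 and 614 to 697), beside 9.49% of all genes. In ethanol-fed mice 0 of the 5 passed (601 to 849 and 554 to 714). The part of these cells in the Hsp90b1 values was not tested.

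Dnajb9 (ERdj4, ENSMUSG00000014905, chr12:44205559-44210326, minus strand) is a J-domain cochaperone that works with the HSPA5 chaperone and with ER-associated degradation. Its values were 799, 1416, 882 and 836 in Pair vehicle and 1296, 1405, 1135 and 716 in Pair IMC mice. They were 849, 502, 790.3 and 694 in EtOH vehicle and 1040.0, 1706, 1306 and 1321 in EtOH IMC mice. The EtOH groups did not overlap, whereas the Pair groups did, with IMC mouse 8 the lowest of all 8. IMC raised Dnajb9 1.90-fold in ethanol-fed mice (log2 fold change 0.93, SE 0.22, adjusted p = 0.00642) and 1.48-fold averaged over both diets (log2 fold change 0.57, SE 0.16, adjusted p = 0.0115). In pair-fed mice the log2 fold change was 0.21 (limma adjusted p = 0.596), and the difference between diets did not pass (log2 fold change 0.72, SE 0.31, adjusted p = 0.279). The EtOH vehicle group was the lowest of the 4 for this gene, at 709 ± 152 (SD, n = 4), and the EtOH IMC group the highest, at 1343 ± 274. Both Dnajb9 calls held in every alternative run, with adjusted p-values of at most 0.026 and 0.0283.

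Xbp1 (ENSMUSG00000020484, chr11:5520659-5525893, plus strand), the transcription factor of the IRE1 branch, had the lowest p of the 10 for a difference of the IMC effects between diets. Pair vehicle mice had 1564, 2841, 2289 and 2359.7 normalized counts, Pair IMC mice 1819, 1878, 1879.6 and 1323, EtOH vehicle mice 1785, 1692, 1721 and 1779 and EtOH IMC mice 2061, 2269, 2222 and 2670.0. The 4 EtOH vehicle mice lay within 1.05-fold of each other and wholly below the EtOH IMC mice, while Pair vehicle mouse 10 was lower than 3 of the 4 Pair IMC mice. The log2 fold change with IMC was -0.37 in pair-fed mice (limma adjusted p = 0.115) and 0.40 in ethanol-fed mice (0.0617), and the difference of 0.77 had an SE of 0.21 and an adjusted p of 0.0831. Across all genes 1.11% passed for that difference in limma, and 0 of the 10 did. At an unadjusted p under 0.05 there were 2 (Xbp1 and Dnajb9), beside 1914 of the 12535 genes tested. DESeq2 called 1 of the 10 (Xbp1, adjusted p = 0.0147) and edgeR with TMM 0, beside 340 and 119 of all genes. Without library 10 the Xbp1 difference was larger and passed, at 0.94 (limma adjusted p = 0.0124). The pair-fed value was then -0.54 (0.0144) and the ethanol-fed value an unmoved 0.40 (0.0193). The ethanol-fed value also passed without library 8 (0.039) or 12 (0.0403), under quantile normalization (0.0356), in DESeq2 (0.0388) and when only the 2 groups were fitted (0.00826).

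**Figure D2:**
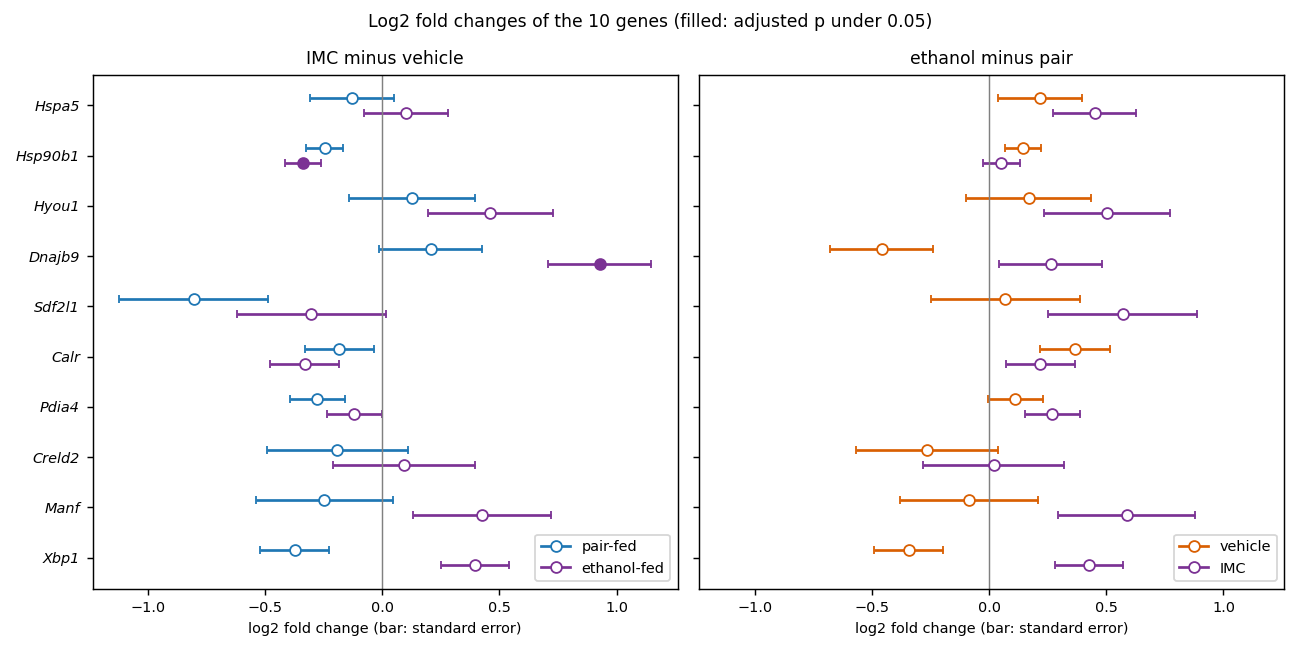
Log2 fold changes (x axis) with standard errors for the 10 genes, IMC against vehicle in each diet at left and ethanol against pair diet in vehicle and IMC mice at right, with filled points for an adjusted p under 0.05. Only Hsp90b1 and Dnajb9 in ethanol-fed mice are filled, and all 10 points for ethanol in IMC mice lie above 0, that of Creld2 by 0.02.

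Hspa5 and Hyou1, of the HSP70 and HSP110 classes, did not pass in limma in any comparison. Hspa5 (BiP, ENSMUSG00000026864, chr2:34771970-34777547, plus strand), the main ER HSP70 and the brake on all 3 sensors, measured 5532, 10289.5, 7469 and 7373 in Pair vehicle, 7732, 8252, 6570.2 and 5216 in Pair IMC, 10963, 6774, 9529 and 8106 in EtOH vehicle and 8844, 9283, 8699 and 10659.9 in EtOH IMC mice. Every group overlapped every other except that all EtOH IMC mice were above all Pair IMC mice. With IMC the log2 fold change was -0.13 with an SE of 0.18 in pair-fed mice and 0.10 with the same SE in ethanol-fed mice (limma adjusted p = 0.691 and 0.72). Hyou1 (GRP170, ENSMUSG00000032115, chr9:44379490-44392369, plus strand), an HSP110-like partner that exchanges nucleotide on HSPA5, had means of 1569.9 ± 538 and 1732 ± 643 in the Pair vehicle and IMC groups and 1706 ± 358 and 2324 ± 304 in the EtOH groups (SD, n = 4 each). Its IMC log2 fold changes were 0.13 and 0.46 (limma adjusted p = 0.808 and 0.232), the second passing (0.0388) when only the 2 EtOH groups were fitted.

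Of the remaining folding genes, Calr, Pdia4 and Sdf2l1 had negative IMC values in both diets, none of them past the threshold. Calr (ENSMUSG00000003814, chr8:84841850-84846934, minus strand), calreticulin, a lectin that holds glycoproteins and calcium, gave -0.18 and -0.33 (limma adjusted p = 0.474 and 0.12). Averaged over both diets it gave -0.26 (0.0759 in limma), which passed without library 15 (0.0469) or 16 (0.0323) and in DESeq2 (0.0494). Pdia4 (ENSMUSG00000025823, chr6:47796141-47813430, minus strand), a disulfide isomerase, measured 1971, 2478, 1779 and 1823 in Pair vehicle and 1702, 1707, 1429 and 1769 in Pair IMC mice, without overlap by a narrow margin (log2 fold change -0.28, SE 0.12, adjusted p = 0.15). The Pair groups thus stood apart for 2 of the 10 genes, Hsp90b1 and Pdia4, where 14.3% of all genes did, and the EtOH groups for 3 (Hsp90b1, Dnajb9 and Xbp1), where 25.3% did.

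Sdf2l1 (ENSMUSG00000022769, chr16:17130138-17132383, minus strand), which keeps HSPA5 clients from aggregating with ERdj3, was the least abundant and among the most variable of the 10. Its values were 154, 228, 73.1 and 82.9 in Pair vehicle and 83.8, 103, 46.4 and 55.7 in Pair IMC mice. The Pair vehicle group fell into a high and a low pair of mice, and the low pair lay inside the IMC range. The log2 fold change of -0.80 had an SE of 0.32 (0.12 in limma, 0.0474 in DESeq2). In ethanol-fed mice it was -0.30 (limma adjusted p = 0.532), and averaged over diets -0.55 (0.0746), which passed without library 4 (0.0463), 14 (0.03) or 16 (0.0443). Creld2 (ENSMUSG00000023272, chr15:88819646-88826683, plus strand), an ER stress-inducible protein with disulfide isomerase activity, and Manf (ENSMUSG00000032575, chr9:106838312-106891979, minus strand), a secreted ER factor that binds HSPA5, ranged over the 16 livers from 138 to 508 and from 295 to 1008 normalized counts, with the lowest value of each in Pair IMC mouse 8 and the highest in Pair vehicle mouse 12. They had IMC log2 fold changes of -0.19 and -0.25 in pair-fed and 0.09 and 0.43 in ethanol-fed mice. Their SEs of 0.30 and 0.29 were above the size of these values in each case but that of Manf in ethanol-fed mice, and the adjusted p-values ran from 0.32 to 0.857 in limma.

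Over the 10 genes the median IMC log2 fold change was -0.22 in pair-fed and 0.10 in ethanol-fed mice, beside medians within 0.01 of 0 over all genes tested. In pair-fed mice 8 of 10 were negative and in ethanol-fed mice 4 of 10, with the signs of Hspa5, Creld2, Manf and Hyou1 changing when 1 library was left out.

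Ethanol left 0 of the 10 genes past the threshold in limma in vehicle mice, beside 11.9% of all genes, and 0 of 10 in IMC mice, beside 16.5%. At an unadjusted p under 0.05 the counts were 2 and 3 of 10, beside 3485 and 3838 of the 12535 genes tested. DESeq2 called 0 and 1 (Xbp1), beside 1803 and 2292 of all genes. In vehicle mice 6 values were positive and 4 negative, with a median of 0.09, and the signs of Sdf2l1, Manf, Hyou1 and Creld2 changed without 1 or another library. Xbp1 (-0.34, limma adjusted p = 0.133) and Dnajb9 (-0.46, 0.182) were negative, and Xbp1 passed without library 10 (-0.51, 0.0147). Calr (0.37, 0.115) was positive and passed without library 12 (0.50, 0.0327). For 0 of the 10 did the EtOH vehicle and Pair vehicle mice stand apart, where 19% of all genes did.

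In IMC mice all 10 ethanol values were above 0, with a median of 0.35 beside one within 0.01 of 0 for all genes, but that of Creld2, at 0.02, turned negative in edgeR and DESeq2 and without library 6, 8 or 15. Hspa5, Xbp1 and Pdia4 were higher in every EtOH IMC mouse than in any Pair IMC mouse, 3 of 10 where 19.2% of all genes stood apart. Their log2 fold changes were 0.45 with an SE of 0.18 (limma adjusted p = 0.094), 0.43 with an SE of 0.15 (0.0543) and 0.27 with an SE of 0.12 (0.129). Manf (0.59), Sdf2l1 (0.57) and Hyou1 (0.50) had larger values and larger errors, with adjusted p-values from 0.187 to 0.237. Xbp1 passed without library 10 (0.0165) or 12 (0.0347), and also under quantile normalization (0.0236), with the 2 groups alone (0.0451), in edgeR with the upper quartile (0.0443) and in DESeq2 (0.0372). On the values as deposited, which put ethanol-fed livers 0.19 higher on the log2 scale by the medians of all genes, 5 of the 10 passed in IMC mice (Hspa5, Hsp90b1, Xbp1, Pdia4 and Calr), beside 28.9% of all genes, and 2 in vehicle mice (Hsp90b1 and Calr), beside 23.9%.

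Averaged over vehicle and IMC mice, ethanol raised 1 of the 10, Calr, beside 26.1% of all genes. Calr measured 6651, 7933, 5107 and 4828 in Pair vehicle, 6221, 5187, 4425 and 5485 in Pair IMC, 8325, 7385, 8397 and 6951 in EtOH vehicle and 5479.7, 6594, 5449.9 and 7285 in EtOH IMC mice. The groups overlapped in both treatments, and the change was 1.22-fold (log2 fold change 0.29, SE 0.10, adjusted p = 0.0483). It was lost in 10 of the 16 fits that left out 1 library (1, 3, 4, 5, 6, 8, 11, 14, 15 or 16, adjusted p from 0.0597 to 0.103), without the low-value filter (0.0702), without a variance trend (0.0708) and in edgeR with TMM (0.0563). Hspa5 was next, at 0.33 (limma adjusted p = 0.0601), and passed without library 3 (0.0319), 4 (0.0423) or 12 (0.0168) and in DESeq2 (0.0484). Pdia4 gave 0.19 (0.102) and passed without library 12 (0.0282).

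The spread between mice of 1 group was wide for most of these genes and not for Hsp90b1. The within-group SD on the log2 scale was 0.08 for Hsp90b1, at percentile 2.29 of genes tested, and 0.52 for Sdf2l1, 0.50 for Creld2 and 0.49 for Manf, all above the 90th percentile. The median over the 10 was 0.33, beside 0.20 over all genes. By group, the median SD of the 10 was 0.37 in Pair vehicle, 0.36 in Pair IMC, 0.29 in EtOH vehicle and 0.17 in EtOH IMC mice. In Pair vehicle mice Creld2 and Sdf2l1 each spanned 3.12-fold from the lowest to the highest liver.

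**Figure D3:**
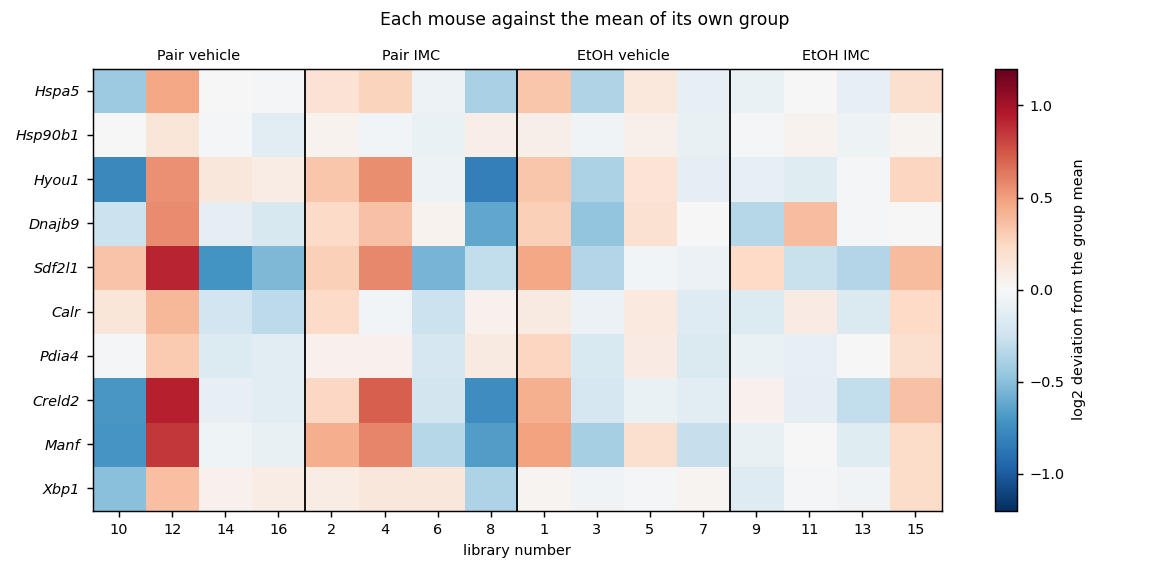
Deviation of each of the 16 livers (x axis, by library number) from the mean of its own group on the log2 scale (colour, red above and blue below), for the 10 genes. Library 12 is above its group mean for all 10 genes, and libraries 10 and 8 are lowest for Creld2, Manf and Hyou1.

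Livers that were high for 1 of these genes tended to be high for the others. Pair vehicle mouse 12 was above its group mean for all 10, by 0.55 on average on the log2 scale, and so were Pair IMC mouse 2 (0.21) and EtOH vehicle mouse 1 (0.28). Pair IMC mouse 8 (-0.37), Pair vehicle mouse 10 (-0.29) and EtOH vehicle mouse 3 (-0.25) were lowest on average. In each group the library with the fewest reads was below the group mean, library 14 at -0.12, library 8 at -0.37, library 3 at -0.25 and library 13 at -0.12. The library with the most reads was also below it in 3 of the 4 groups, library 16 at -0.14, library 6 at -0.16 and library 11 at -0.01, and above it in the other, library 5 at 0.08. The part of depth was not tested.

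Over the 16 livers, the deviations of all 45 pairs of genes correlated positively, with a median Pearson r of 0.62 and a range from 0.03 to 0.97. These livers share libraries and scale factors across genes, so r is a description here. Hspa5 and Manf (0.97), Creld2 and Manf (0.95) and Hspa5 and Hyou1 (0.95) were closest, and Hsp90b1 and Xbp1 (0.03) least alike. Seen in these values, 6 genes (Hspa5, Manf, Creld2, Hyou1, Xbp1 and Dnajb9) had r of at least 0.68 with each other, and 4 (Hsp90b1, Calr, Pdia4 and Sdf2l1) of at least 0.59, while pairs across ranged from 0.03 to 0.68. Without libraries 12 and 8, which lay farthest out, the medians were 0.70, 0.68 and 0.31, and 42 of the 45 pairs stayed above 0. The lowest r within the first set then fell to 0.25 and the highest across sets was 0.70. Single pairs did not fully separate the sets with all 16 livers either. Sdf2l1 and Creld2, a pair across sets, had 0.676 there, above Hsp90b1 and Sdf2l1 (0.588) within the second set. All 4 genes of the second set had negative IMC values in both diets.

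**Figure D4:**
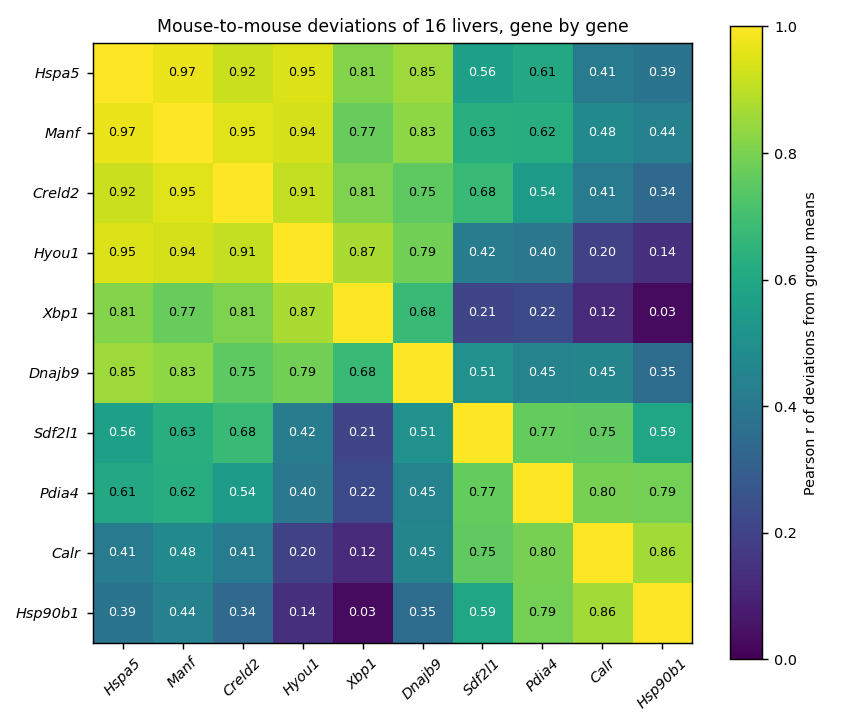
Pearson r between the deviations of each pair of genes from their group means over 16 livers (colour and printed value, with the diagonal set to 1). Hspa5, Manf, Creld2, Hyou1, Xbp1 and Dnajb9 form a block of high values, and Hsp90b1, Calr, Pdia4 and Sdf2l1 another.

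Among all other genes tested, those whose level over the 16 livers was most like the mean standardized level of the 10 were Dnajb11 (r = 0.87), Syvn1 (0.81), Gtf2h3 (0.81), Cdk2ap2 (0.78), Tmc8 (0.77), Slc35b1 (0.76), Shroom3 (0.75), Ercc2 (0.75), Kdelr2 (0.74) and Pdia3 (0.74). Dnajb11 is ERdj3, an ER J-domain cochaperone, Syvn1 is HRD1, the ligase of ER-associated degradation, Kdelr2 is a receptor that returns ER proteins from the Golgi, and Pdia3 is a disulfide isomerase that works with calreticulin. Each of the 10 is itself part of their mean level, so its r cannot be set beside those of the other genes. Among the 10, Manf (0.93) and Hspa5 (0.93) followed this common level most closely and Hsp90b1 (0.42) and Dnajb9 (0.46) least. With group means taken out, r was instead taken with the mean deviation of the 10 genes, which was not standardized. Dnajb9 had 0.85 on that measure and Hsp90b1 the lowest value, 0.51. Genes with a wide spread between mice counted for more in that mean, and Hsp90b1, with the narrowest spread, counted for least. A change from 0.46 or 0.42 to these values thus cannot be put down to the group means alone.

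The sensors upstream of these genes rose with IMC, averaged over both diets, by 0.41 (Ern1), 0.40 (Eif2ak3) and 0.38 (Atf6) on the log2 scale (limma adjusted p = 0.00201, 0.0277 and 0.001). In that average 28.2% of all genes passed. Ern1, which encodes IRE1, rose in pair-fed mice (log2 fold change 0.66, SE 0.12, adjusted p = 0.00357) and gave 0.16 in ethanol-fed mice (limma adjusted p = 0.355), with no difference between the diets past the threshold (0.177). Atf6 rose in both (0.35 and 0.41, adjusted p = 0.0393 and 0.00977 in limma). Eif2ak3, which encodes PERK, rose in ethanol-fed mice (log2 fold change 0.60, SE 0.18, adjusted p = 0.0256) and gave 0.20 in pair-fed mice (0.54). Atf4, the factor made under PERK signalling, gave -0.29 and 0.30, and Ddit3 (CHOP), its target linked to cell death, -0.39 and 0.09, with limma adjusted p-values from 0.155 to 0.733. With ethanol, Ern1 fell in IMC mice by 0.39 on the log2 scale (limma adjusted p = 0.0377). Of the list of 12 sensors and transcription factors of the response, 2 rose and 0 fell with IMC in each diet. Over all genes 9.49% passed in pair-fed and 21.5% in ethanol-fed mice. With ethanol 1 rose (Atf6b, 0.63) and 1 fell (Nfyb, a subunit of NF-Y, -0.34) in vehicle mice, beside 11.9% of all genes.

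With IMC in ethanol-fed mice, where 21.5% of all genes passed, the other ER lists ranged on both sides of that share. Of 26 genes of ER-associated degradation 10 rose and 1 fell, with Vimp (0.58), Nploc4 (0.38) and Ube2j2 (0.48) at the lowest p. Of 27 genes of ER translocation and N-glycosylation 7 rose and 0 fell, led by the signal recognition particle receptor subunit Srprb (0.81), the translocon-associated Ssr4 (0.52) and the channel subunit Sec61a1 (0.42). Of 16 genes of the COPII coat and ER exit 5 rose and 1 fell, with Preb (0.57) and Sec24d (0.68) up and Sec16b (-0.34) down. Of 12 targets of PERK and ATF4 3 rose: Asns (1.72), Ppp1r15a (0.89) and Sesn2 (0.89). The 21.5% counts genes called in either direction. Counted that way the translocation and PERK lists were near the share of all genes, but all of their called genes rose. In the classes closest to the 10, 1 of 26 other ER chaperones rose (Hspa13, 0.51), 1 of 19 disulfide isomerases and oxidases (Erp29, 0.35), and of 10 genes of glycoprotein folding 1 rose (Mogs, 0.49) and 1 fell (Mcfd2, -0.27). Tor1a (0.33), Dnajc10 (0.29), Ero1l (0.33), Tmx2 (-0.19) and Lman2 (-0.21), next by p in these lists, did not pass. In pair-fed mice, beside 9.49% of all genes, 3 genes of ER-associated degradation rose, 1 of the other chaperones rose and 1 fell, and 1 translocation gene fell. In the lists of disulfide isomerases, glycoprotein folding, COPII and PERK targets 0 passed. Averaged over both diets, 28.2% of all genes passed with IMC. There 11 degradation genes rose and 1 fell, 7 translocation genes rose and 2 fell, and 5 COPII genes rose and 1 fell. Of the PERK and ATF4 targets 3 rose and 1 fell, and of the other chaperones 2 rose and 3 fell. For disulfide isomerases these counts were 1 and 2, and for glycoprotein folding 1 and 1.

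Among 18 chaperones of the cytosol and mitochondria 9 rose and 0 fell with ethanol in vehicle mice, beside 11.9% of all genes, among them Hspb1 (2.25), Hsp90aa1 (1.68), the cytosolic counterpart of Hsp90b1, and Hspa4l (1.07). Hsp90aa1 averaged 1312 ± 160.4 in Pair vehicle and 4248 ± 882 in EtOH vehicle mice (SD, n = 4), where the value of Hsp90b1 was 0.14 on the log2 scale (limma adjusted p = 0.236). In IMC mice 8 rose and 1 fell with ethanol, beside 16.5% of all genes. How these differ from the ER lists was not tested. With IMC in ethanol-fed mice 1 rose and 3 fell, the mitochondrial Hspd1 (-0.52), Hspe1 (-0.34) and Trap1 (-0.33), of which Trap1 is the mitochondrial HSP90. In pair-fed mice 1 rose.

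With ethanol in vehicle mice, beside the same 11.9% of all genes, the ER lists held genes that rose and genes that fell. Among other ER chaperones 4 of 26 rose and 2 fell, with the collagen chaperone Serpinh1 (1.03), Cnpy4 (0.78) and Fkbp9 (0.49) at the lowest p. In ER-associated degradation 0 rose and 4 fell, including Herpud1 (-0.85), Ube2j2 (-0.41) and Herpud2 (-0.29). Mlec (0.49) and Uggt1 (0.35), which read the glycans of folding proteins, rose, as did the disulfide isomerase Tmx2 (0.60), the glycosylation subunit Magt1 (0.46) and Cth (0.69), while Ssr4 (-0.37) and Sec23a (-0.21) fell. Prdx4 (-0.36), Tmx4 (-0.34), Ssr1 (0.28), Sec13 (0.23), Sec16b (0.25), Lman2 (0.23), Chac1 (-1.86), Ppp1r15a (-0.49) and Eif2ak3 (-0.56), also named by the rule, did not pass. In the ethanol effect averaged over vehicle and IMC mice, where 26.1% of all genes passed, Prdx4, Chac1 and Eif2ak3 were lower and Ssr1, Sec13, Sec16b and Lman2 higher (limma adjusted p from 0.000115 to 0.0492), while Tmx4 (0.0614) and Ppp1r15a (0.571) did not pass. In that average 9 of 26 other ER chaperones rose and 1 fell, 7 of 10 glycoprotein folding genes rose, 10 of 27 translocation genes rose and 1 fell, 5 of 12 PERK and ATF4 targets rose and 1 fell, 3 degradation genes rose and 4 fell, 4 disulfide isomerases rose and 4 fell, 4 COPII genes rose and 2 fell, and 1 sensor rose and 2 fell. In IMC mice, where 16.5% of all genes passed with ethanol against 11.9% in vehicle mice, 9 of 26 other ER chaperones rose and 1 fell, 10 of 27 translocation and glycosylation genes rose and 1 fell, 5 of 12 PERK and ATF4 targets rose, 4 of 10 glycoprotein folding genes rose, 4 of 26 degradation genes rose and 2 fell, 3 of 16 COPII genes rose and 2 fell, 3 of 19 disulfide isomerases rose, and 2 sensors rose and 1 fell.

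**Figure D5:**
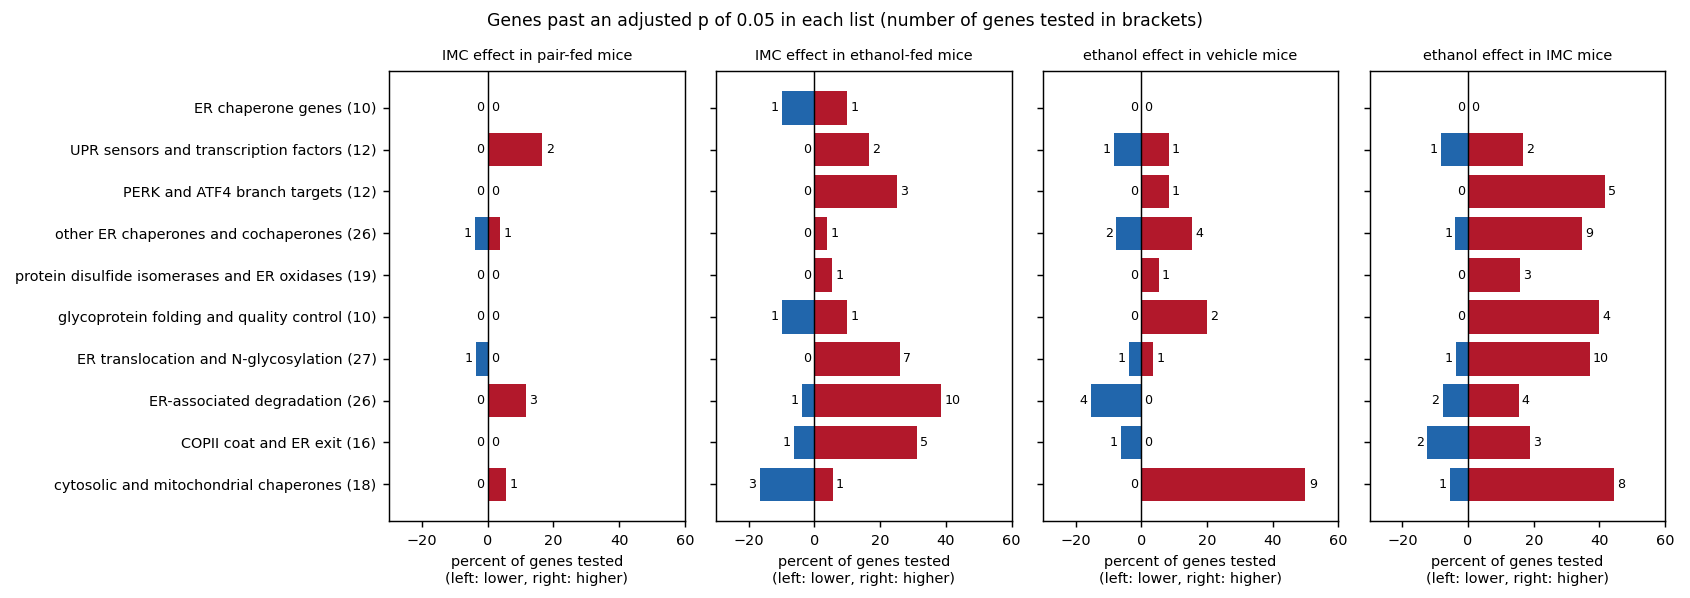
Percent of the tested genes of each list past an adjusted p of 0.05 (x axis, right for higher and left for lower, with the number of genes at each bar) in 4 comparisons, for the 10 ER chaperone genes and 9 other lists. With IMC in ethanol-fed mice 10 of 26 genes of ER-associated degradation lie to the right, against 1 of the 10 chaperone genes, beside 21.5% of all genes in either direction.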

How the data were processed

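RNA from 16 mouse livers was sequenced by the authors from directional libraries with 100-base reads, paired-end per the labels and single-end per the study's methods, and the submitters' processing notes name Trim Galore, FastQC, STAR, edgeR and the mm10 genome, without versions. The deposited signal values are read counts per gene that the authors scaled library by library: dividing each column by its smallest step gave whole reads, within 0.01, for 100% of values in every library. The table paired Ensembl IDs with symbols, and 430 IDs with several symbols were kept as 1 row each. Since the deposited scale differed between diets by 0.191 on the log2 scale, all columns were rescaled by a median ratio over the 16 libraries. The tests covered the 12535 of 24082 genes whose deposited value, before rescaling, reached 10 in 4 or more livers.

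Group means were fitted to log2(value + 1) with limma 3.58.1 (R 4.3.3) in 1 model with a mean-variance trend, two-sided, and p-values were adjusted over all genes tested with a threshold of 0.05. With 4 mice against 4, an exact permutation test of a single value cannot go below p = 0.0286. The fit was tested on simulated data. edgeR 4.0.16 and DESeq2 1.42.0 on the recovered reads, other scales, pseudocounts of 0.1 and 5, other filters and fits without each library were run as alternatives. Gene models and lengths came from GENCODE vM21 (GRCm38) and promoter sequences from the RefSeq table.

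The 10 genes and the lists were chosen with earlier results of these data known. All 10 are reported in each comparison. From each other ER list the text names the 3 genes with the lowest p for IMC in ethanol-fed mice and the 3 for ethanol in vehicle mice, besides the 5 signalling genes Ern1, Eif2ak3, Atf6, Atf4 and Ddit3 and the 10 other genes most correlated with the mean standardized level of the 10.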

Additional observations from a re-analysis of the deposited data

Results flagged for a closer look

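Pair IMC mouse 8 stood apart for Xbp1. It had 1323 normalized counts where the other 3 Pair IMC mice had 1819 to 1880, and its gap to the nearest of them was 0.907 of the range of the group on the log2 scale, above Dixon's critical value for 4 samples. Of the 40 sets of 4 values (10 genes in 4 groups) this was 1, and chance alone flags about 1 set in 20. The same library was the lowest of its group on average over the 10 genes and held the fewest reads of its group, and the part of depth was not tested.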

How the results depend on the processing

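Of 2000 log2 fold changes recomputed under alternatives, 1866 kept their direction and side of the threshold, 54 gained a call, 16 lost one and 64 changed sign, and no value that passed the threshold changed sign. The counts of the 10 genes past the threshold, 0, 2, 0 and 2 for IMC (pair-fed, ethanol-fed, difference, average) and 0, 0 and 1 for ethanol (vehicle, IMC, average), changed as follows, and the causes were not tested. The average ethanol count became 0 without the low-value filter, without the variance trend, in edgeR with TMM, and in edgeR or DESeq2 without replicate 15. A mean of at least 100 or edgeR with the upper quartile gave 1 for IMC in pair-fed mice. Values as deposited gave 2, 5 and 5 for ethanol, and fitting only the libraries compared gave 4 for IMC in ethanol-fed mice. Ethanol in IMC mice gave 1 under quantile normalization, only the libraries compared, the upper quartile and DESeq2. DESeq2 gave 2 in pair-fed mice, 1 for the difference, 4 for the IMC average and 2 for the ethanol average, and without replicate 15 it gave 2 in pair-fed mice and 5 for the IMC average, where edgeR gave 4. Leaving out each library gave 0 to 1 in pair-fed mice, 2 to 3 in ethanol-fed mice, 0 to 1 for the difference, 2 to 4 for the IMC average, 0 to 1 for ethanol in vehicle and in IMC mice and 0 to 3 for the ethanol average. Fits of edgeR and DESeq2 without replicate 15 were chosen after seeing the data.

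Signs that changed belonged to values near 0 or with wide spread. Values as deposited gave 0.10 for Manf with ethanol in vehicle mice, and 0.093 and 0.067 for Dnajb9 and Creld2 in the ethanol average. Quantile normalization gave 0.11 and 0.039 for the differences of Hsp90b1 and Calr and 0.036 for the IMC average of Hspa5. In edgeR with TMM, edgeR with the upper quartile and DESeq2, Sdf2l1 with ethanol in vehicle mice was -0.055, -0.033 and -0.055, and Creld2 with ethanol in IMC mice -0.063, -0.035 and -0.064, while Xbp1 in the IMC average was -0.0015 and -0.017 in the edgeR fits. Without replicate 15, edgeR and DESeq2 gave -0.036 and -0.0399 for Creld2 with IMC in ethanol-fed mice, -0.033 and -0.036 for the IMC average of Xbp1, -0.052 and -0.056 for Sdf2l1 with ethanol in vehicle mice, -0.19 and -0.19 for Creld2 with ethanol in IMC mice and -0.012 and -0.018 for the ethanol average of Xbp1. Leaving out 1 library at a time gave, with IMC in pair-fed mice, -0.28 to 0.023 for Hspa5, -0.43 to 0.12 for Creld2, -0.48 to 0.037 for Manf and -0.13 to 0.40 for Hyou1. In ethanol-fed mice it gave -0.018 to 0.21 for Hspa5 and -0.023 to 0.23 for Creld2, and for the difference of Creld2 -0.028 to 0.52. For the IMC average it gave -0.086 to 0.063 (Hspa5), -0.17 to 0.11 (Creld2), -0.072 to 0.072 (Xbp1) and -0.029 to 0.23 (Manf). For ethanol in vehicle mice it gave -0.17 to 0.37 (Sdf2l1), -0.32 to 0.20 (Manf), -0.088 to 0.35 (Hyou1) and -0.50 to 0.047 (Creld2), for ethanol in IMC mice -0.23 to 0.26 (Creld2), and for the ethanol average -0.042 to 0.10 (Xbp1) and -0.25 to 0.033 (Creld2).

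Counts over all genes moved by more than 1.5 times for the difference between diets, from 139 to 80 without the low-value filter, 82 without the trend and 340 in DESeq2, with 54 to 159 when 1 library was left out, and 72 and 256 in edgeR and DESeq2 without replicate 15. IMC in pair-fed mice went from 1189 to 691 with only its libraries and to 537 and 543 without libraries 4 and 6. Ethanol on values as deposited went from 1486 to 3000 in vehicle mice, 2067 to 3624 in IMC mice and 3267 to 5222 on average, and fell to 803 and 974 in vehicle mice without libraries 5 and 14 and to 1364 (limma) and 1347 (edgeR) in IMC mice without library 15. With these deposited values 2801 genes were called higher and 199 lower in vehicle mice, 3183 and 441 in IMC mice and 4730 and 492 on average, where rescaled values gave 794 and 692, 988 and 1079, and 1621 and 1646. No paired analysis was possible because the groups share no replicate numbers. Counting error was over 0.5 of the CV between mice in 1 of 40 sets, Xbp1 in EtOH vehicle mice, where it was 0.905 of it.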
